A study of Mus musculus and Homo sapiens with 83 samples.

Results

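The libraries described are the cytoplasmic RNA of 12 single K562 cells taken through AMAR-seq, set against 2 bulk K562 RNA libraries. They were picked by their titles alone and make up 14 of the 83 samples of a series that also holds DNA libraries and mouse embryonic stem cells. K562 is an established chronic myeloid leukaemia line, a model of a blast-stage leukaemia in continuous culture, here grown in serum-containing medium and untreated in both groups. In AMAR-seq a single cell is held by lectin-coated beads and its outer membrane is opened in hypotonic buffer. The cytoplasmic RNA is then drawn off by electrodes and turned into cDNA by the Smart-seq2 chemistry, and the nucleus is kept for methylation and accessibility. The labels call the RNA of both groups polyA RNA, 1 library per cell for AMAR-seq, and do not say how many cells or cultures the bulk libraries came from.

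K562 cells carry the BCR-ABL fusion kinase and are known for a mixed erythroid and megakaryocytic character. A bulk level averages over many cells, so it cannot tell a gene that every cell transcribes a little from one that few cells transcribe strongly, nor fewer expressing cells from less RNA per cell. Single-cell libraries can show that spread, but the small amount of starting RNA is copied many times, and a transcript missed at the first copying step leaves no reads. Some RNAs are kept in the nucleus and would be missing from a purely cytoplasmic sample. The comparison asks which genes stood at another level in the 12 cells than in bulk, and how evenly each gene was spread over the cells.

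The 60623 human gene IDs come without names, and 0 of them matched the name tables at hand, which are of mouse genes. Genes are therefore given by ID, with no role or position, and the K562 identity rests on the labels, since marker genes could not be evaluated. No separate cultures are named for the cells, so the 12 cells were treated as 1 sample. The differences between the cells and bulk thus have no replicate check, and no test was made. Intervals below cover counting error only, and the reads carry no molecular identifiers.

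Reads on genes numbered 4094540 to 7452478 per AMAR-seq cell and 8675014 and 6200149 in the bulk libraries. The cells stood apart from each other far more than the bulk libraries did. In a random 1000000 gene reads, the cells had a median of 9140.5 genes with a read and a range from 6040 (cell 4) to 12638 (cell 3), and the bulk libraries had 13702 and 13728. Cells 1, 4, 5, 6 and 9 had under 8000 genes. The 10 genes most abundant in bulk took a median of 35.2% of the reads of a cell, from 13.5% (cell 1) to 62.8% (cell 9), and 14.2% and 13.8% of the bulk reads. In cells 2, 7, 9 and 12, the 10 most abundant genes of that cell took over 50% of its reads (56.5% to 73.5%). Across 15798 genes, the Pearson correlation of log2(CPM + 1), where CPM is reads per 1000000 gene reads, was 0.61 to 0.85 between a cell and the summed bulk libraries, highest in cell 11 and lowest in cell 4. Pairs of cells had r of 0.46 to 0.85 with a median of 0.68, and the bulk pair had 0.99 (genes are not independent replicates). The 12 cells summed had r of 0.87 with bulk (Spearman 0.84), above each single cell.

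**Figure D1:**
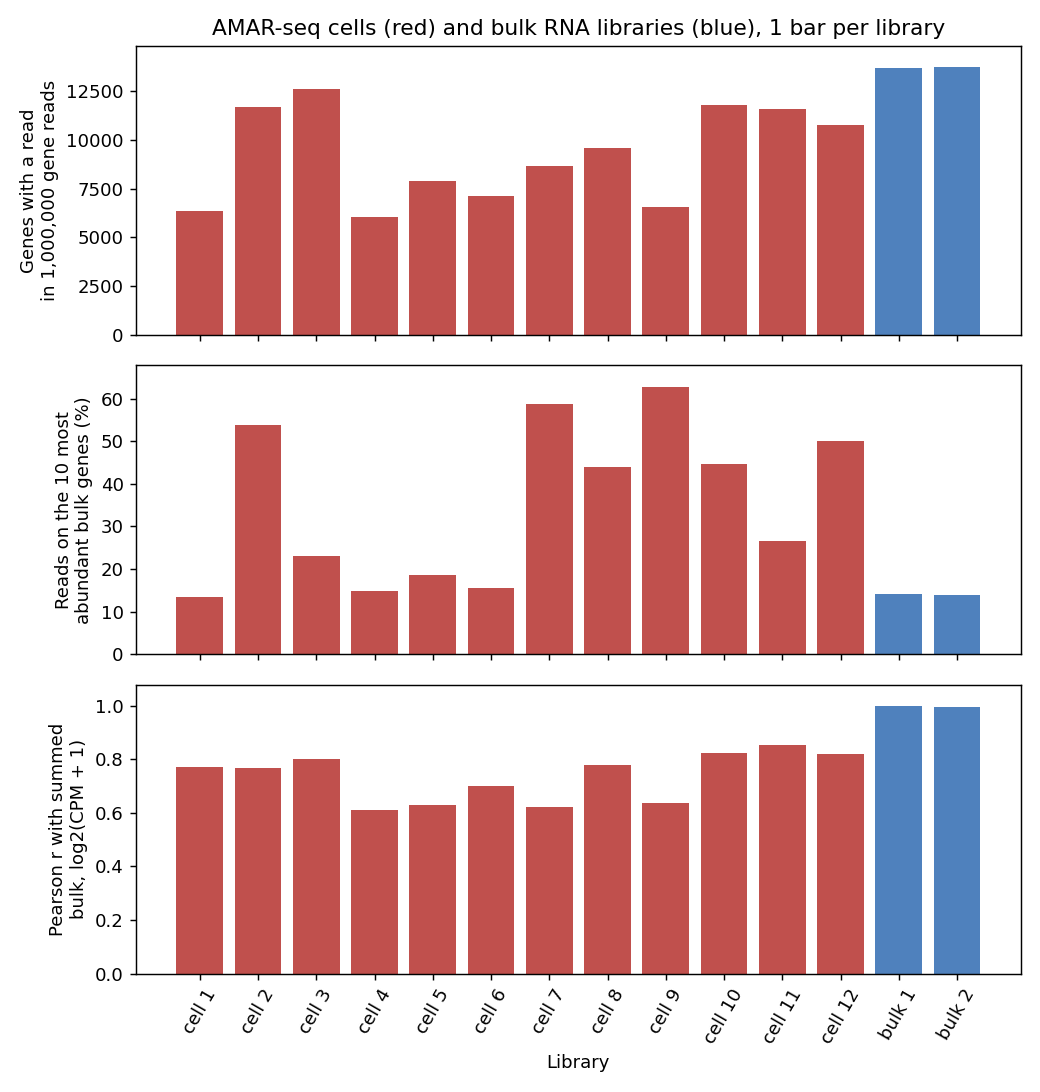
Each bar is 1 library, with the 12 AMAR-seq cells in red and the 2 bulk libraries in blue. From the top, the axes give the genes with a read in 1000000 gene reads, the percent of gene reads on the 10 genes most abundant in bulk, and the Pearson r with the summed bulk libraries (a sum that holds the bulk library itself in the blue bars). The cells range from 6040 to 12638 genes, below both bulk libraries, and cells 2, 7 and 9 have over 50% of their reads on those 10 genes.

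Reads that fell on no gene also varied by cell. They took 1.27% to 8.17% of all reads in the cells (median 4.00%), and 2.61% and 2.66% in bulk. Reads that overlapped several genes took 2.75% to 14.4% in the cells (median 6.37%), and 10.8% and 11.1% in bulk. Multiply aligned reads took 7.30% to 36.5% in the cells (median 17.6%), and 12.9% and 12.3% in bulk. On each of these measures the bulk values lay inside the range of the cells. Reads with low alignment quality did not overlap between the groups, at 0.26% to 1.66% in the cells, against 6.92% and 6.60% in bulk. How much these shares shape the levels below was not tested.

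Of 15692 genes with at least 20 reads over both groups in at least 2 libraries, 2727 were at least 2-fold higher in the summed cells than in bulk (17.4% of the genes), and 3418 were at least 2-fold lower (21.8%). The fold is a log2 ratio of CPM with 1 CPM added, less the median over all 15692 genes, which was -0.44. The 25th and 75th percentiles of this relative log2 ratio were -0.87 and 0.76, and the 5th and 95th were -2.06 and 1.88. The genes nearest the higher threshold lay at 1.00005 and 0.999475, and those nearest the lower one at -1.00021 and -0.999975, so neither threshold fell in a gap. The bulk pair, treated the same way, had 2.63% of genes 2-fold apart in either direction, against 39.2% between the cells and bulk. Among the 7425 genes at 10 CPM or more in bulk, the shares were 45.4% between the cells and bulk and 0.0404% within the bulk pair. The 15692 genes included 421 with 0 reads in bulk and 32 with 0 reads in the 12 cells. Those without bulk reads could not be called lower, nor differ within the bulk pair. Those without reads in the cells could not be called higher. The number of higher genes was 2931 without the 4 cells that had over 50% of reads on 10 genes, and 3312 without the 5 cells under 8000 genes. The number of lower genes was 3087 and 3321.

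The direction of the difference went with the level in bulk, which enters both the bin and the ratio. At 10 to 100 CPM in bulk, 9.46% of 5690 genes were at least 2-fold higher in the cells and 35.3% at least 2-fold lower, with a median relative log2 ratio of -0.55. At 100 to 1000 CPM, 7.47% of 1606 genes were higher and 40.8% lower, with a median of -0.77. Among the 129 genes at 1000 CPM or more, 20.2% were higher and 20.9% lower, with a median of -0.07. At 1 to 10 CPM, 18.4% of the 4813 tested genes were higher and 15.1% lower, with a median of -0.06. Of the genes in these bins, those at 10 to 1000 CPM in bulk thus stood lowest in the cells relative to the median gene. With 1 CPM added, genes near 1 CPM in bulk could not reach the lower threshold even without reads in the cells. The share of lower genes at 1 to 10 CPM is therefore limited by the measure. Genes under 1 CPM in bulk are in none of these bins and could not be called lower either.

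The top of the range went the other way. Of the 10 genes most abundant in bulk, 6 were at least 2-fold higher in the cells and 1 at least 2-fold lower, with a median relative log2 ratio of 2.04 and a range from -1.13 to 3.04. Together they took 34.5% of the summed reads of the cells and 14.1% of the summed bulk reads. Of these 10 genes, 8 were among the 10 most abundant of at least 6 cells. The 10 most abundant genes of each cell came to 28 different genes over the 12 cells, which included all 10 of bulk and 12 that ranked there in a single cell.

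**Figure D2:**
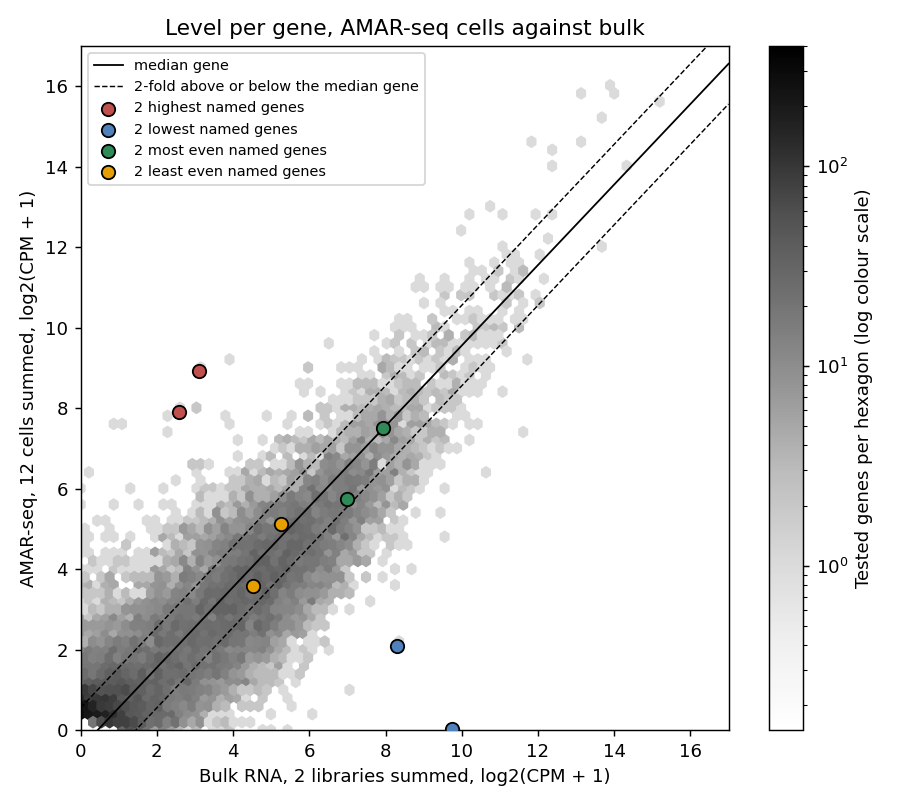
Each hexagon counts tested genes by their log2(CPM + 1) in the 2 summed bulk libraries (x axis) and in the 12 summed AMAR-seq cells (y axis). The solid line is the median gene, 0.44 below equality on the log2 scale, the broken lines lie 2-fold to either side, and the coloured points are the 8 genes described by ID. The cloud widens at low levels, bends below the line at middle levels and rises above it for the most abundant genes.

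Genes were described by ID if they had 20 CPM or more on the higher side, a 2-fold ratio that held without any 1 cell or bulk library, a median cell on the same side, and reads in at least 8 cells (higher) or both bulk libraries (lower). Of the 844 higher genes at 20 CPM or more in the cells, 433 met these conditions. Of the 2136 lower genes at 20 CPM or more in bulk, 1840 did. That is 51.3% of the higher genes and 86.1% of the lower ones, under conditions that differ between the directions. The median cell was compared with the bulk mean in plain CPM, where the median gene lay at a log2 ratio of -0.44. This makes that condition harder to meet for higher genes than for lower ones.

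The largest relative log2 ratio among the higher genes was that of ENSG00000182774, at 6.25. It had 110 CPM in the lowest cell, 407 CPM in the median cell and 1270 CPM in the highest (cell 3), against 7.84 and 7.42 CPM in the bulk libraries. All 12 cells had reads and stood above both bulk libraries. The summed cells had 485 CPM (exact Poisson interval 479.9 to 490.2), against 7.66 CPM (6.32 to 9.21) in summed bulk, and the log2 ratio lay between 6.04 and 6.39 without any 1 library. Its effective number of cells, defined as the squared sum of a gene's CPM over the sum of its squares, was 8.70 on a scale that runs from 1, with all of the gene in 1 cell, to 12, with equal CPM in all cells.

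The next was ENSG00000281383, at 5.76. It had 49.0 CPM in the lowest cell, 175 CPM in the median cell and 794 CPM in the highest (cell 12), against 5.65 and 4.03 CPM in bulk. Again all 12 cells stood above both bulk libraries, but the cells were less alike, with an effective number of 6.81. The summed levels were 237 CPM (234 to 241) in the cells and 4.97 CPM (3.91 to 6.25) in bulk, and the log2 ratio lay between 5.55 and 6.00 without any 1 library.

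The lowest ratio was that of ENSG00000145569, at -9.26. It had 2 reads in all the cells, 1 read each in cells 8 and 11, against 7573 and 5200 reads in the bulk libraries, or 873 and 839 CPM. The ratio of the summed CPM was 3.34e-05, with an exact counting interval of 4.04e-06 to 0.000121. With so few reads, its log2 ratio was set by the pseudocount, at -12.10 with 0.1 CPM added and -6.29 with 10 CPM. Its bulk levels lay far above the floor of 3 reads in a cell, which was 0.403 to 0.733 CPM. Why the cells had so few of its reads was not tested. ENSG00000268223 followed at -5.77, with 0.198 CPM in the lowest cell, 3.41 CPM in the median cell and 6.99 CPM in the highest (cell 11), against 321 and 311 CPM in bulk. Unlike the first, it had reads in all 12 cells, spread over an effective 8.61 cells. In cell 5, the lowest, this was 1 read, under the floor of 3 reads. Neither gene overlapped between the groups, as was the case for 2290 of the 3418 lower genes and for 17.3% of all genes tested.

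**Figure D3:**
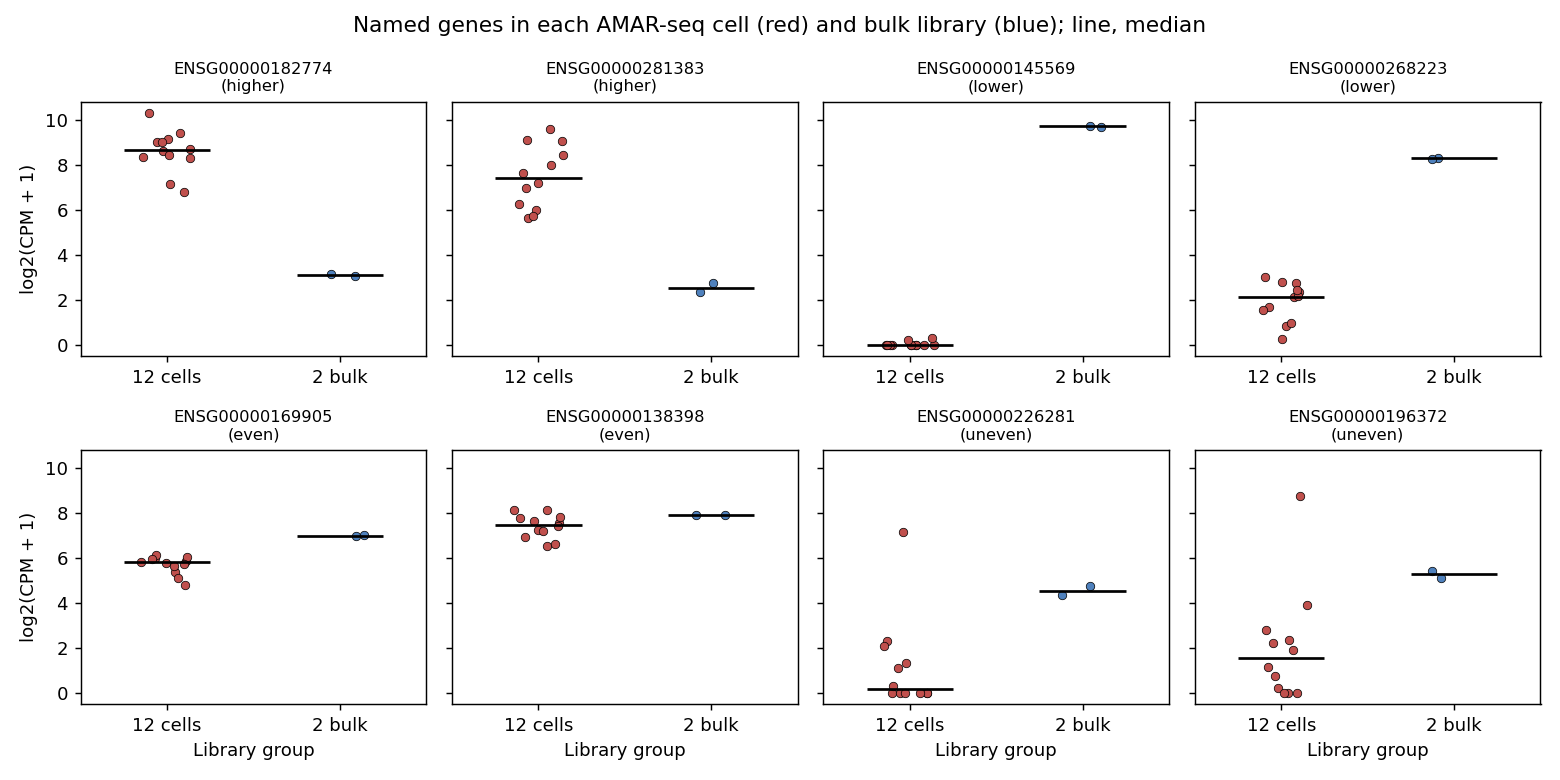
Each panel is 1 gene, with a point per library at its log2(CPM + 1), the 12 AMAR-seq cells on the left in red and the 2 bulk libraries on the right in blue, and a line at the median. The higher and lower genes (top row) do not overlap between cells and bulk, the even genes (bottom left) form tight groups, and the uneven genes (bottom right) have 1 cell, cell 5, far above the rest.

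Over the 7425 genes at 10 CPM or more in bulk, a choice that used no value of the cells, the median effective number was 5.71 cells of 12. After each cell was thinned to the 4094540 reads of the shallowest, the median was 5.70. The highest cell held a median of 29.2% of a gene's summed CPM. At the ends of the distribution, 238 genes (3.21%) reached an effective number of 9 or more, and 655 genes (8.82%) fell under 3. The spread evened out with the level in bulk, from a median effective number of 3.20 at 1 to 10 CPM to 5.34 at 10 to 100 CPM, 6.89 at 100 to 1000 CPM and 7.77 at 1000 CPM or more. Even among the 129 most abundant genes, the central 80% lay between 5.66 and 9.33.

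Presence followed the same order. Of the genes at 10 CPM or more in bulk, 7423 of 7425 had a read in at least 1 cell, and 3026 (40.8%) had one in every cell, or 2777 (37.4%) at the shallowest depth. A further 3452 were read in 9 to 11 cells, 826 in 6 to 8 cells and 119 in 1 to 5 cells. All 129 genes at 1000 CPM or more were read in every cell, as were 83.3% of those at 100 to 1000 CPM, 27.4% at 10 to 100 CPM and 4.07% at 1 to 10 CPM. By cell, the share of the 7425 genes with a read ran from 72.3% (cell 4), 75.8% (cell 1), 78.4% (cell 6), 78.5% (cell 9) and 83.4% (cell 5) up to 99.2% (cell 3). Over the 7 cells with at least 8000 genes, 5724 of the 7425 genes were read in every cell, and the median effective number was 67.8% of the cells, against 47.6% over all 12. The 5 cells left out there were chosen after the data were seen. With fewer cells, the number of genes read in every cell can only stay or rise, and the lowest possible share of the cells is higher.

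**Figure D4:**
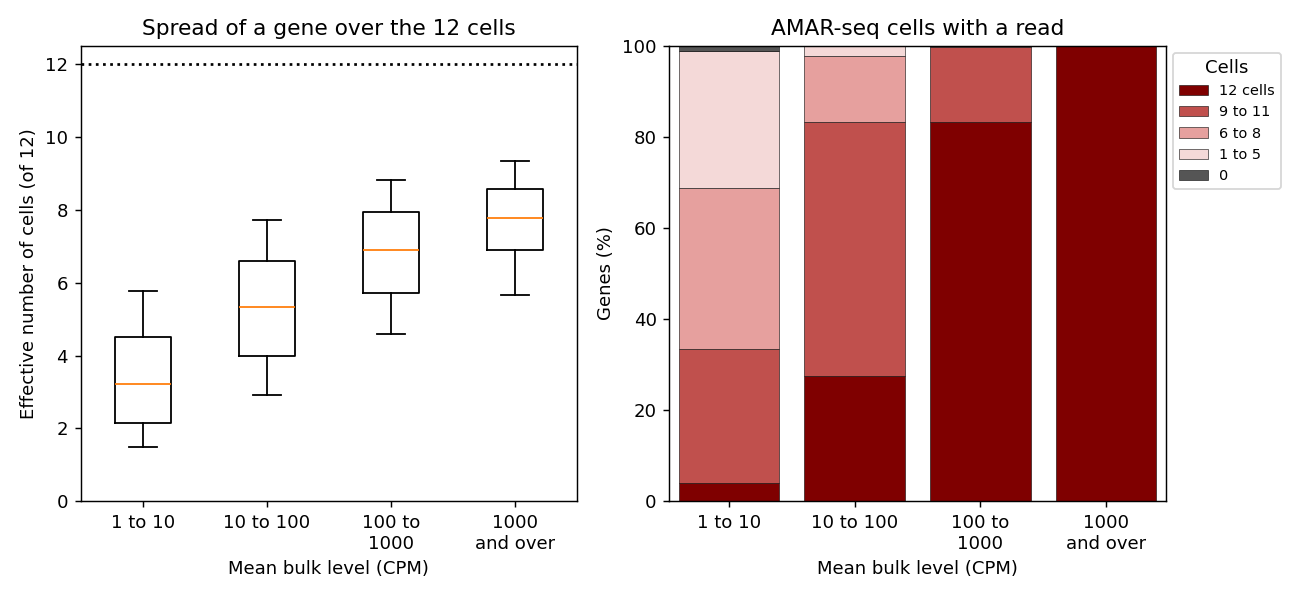
Left, the effective number of cells per gene (of 12, dotted line) by mean bulk level in CPM, for all genes of that level; boxes span the quartiles with the median, and whiskers the central 80%. Right, the percent of genes read in 12, 9 to 11, 6 to 8, 1 to 5 or 0 cells at each bulk level, from 4.07% in every cell at 1 to 10 CPM to 100% at 1000 CPM or more.

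Genes within 2-fold of bulk, relative to the median gene, could still be spread in opposite ways. Among 3014 such genes at 20 CPM or more in bulk, the effective number ran from 1.15 to 11.4 with a median of 6.41. The most even was ENSG00000169905, at 11.4, with 26.6 CPM in the lowest cell, 54.96 CPM in the median cell and 68.6 CPM in the highest, against 126 and 128 CPM in bulk. All its cells lay below both bulk libraries in plain CPM, and its relative log2 ratio was -0.82. ENSG00000138398 followed at 10.8, with 92.4 CPM in the lowest cell, 179 CPM in the median cell and 283 CPM in the highest, against 245 and 242 CPM in bulk. Its cells lay on both sides of bulk, and its relative log2 ratio was 0.03. The order of these genes turned round when the totals left out the 50 most abundant genes of each library, with 10.1 for ENSG00000169905 and 11.4 for ENSG00000138398.

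The least even were ENSG00000226281, at 1.15, and ENSG00000196372, also at 1.15. ENSG00000226281 had 141 CPM in cell 5 and at most 3.92 CPM in any other cell, against 19.5 and 26.0 CPM in bulk, and was read in 6 of 12 cells. ENSG00000196372 had 434 CPM in cell 5 and at most 14.1 CPM in any other cell, against 34.0 and 42.6 CPM in bulk, and was read in 9 of 12 cells. In both, cell 5 alone stood above bulk and held 93.3% and 93.0% of the summed CPM, and the other 11 cells stood below both bulk libraries. Their relative log2 ratios of -0.51 and 0.31 were set by that cell, and were -3.19 and -2.84 without it. A relative ratio within 2-fold thus did not show that the single cells were close to bulk.

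Many of the higher genes also lay largely in 1 cell. Of the 2727 genes at least 2-fold higher in the cells, 1290 (47.3%) had more than 50% of their summed CPM in 1 cell, as had 3105 (32.5%) of the 9547 genes within 2-fold and 637 (18.6%) of the 3418 lower genes. These classes differ in level, with a median of 1.75, 5.58 and 30.9 CPM in bulk. The ratio and the spread were also computed from the same cells, so that 1 high cell moves both. Restricted to 10 CPM or more in bulk, the shares were 12.6% of 684, 9.53% of 4051 and 10.5% of 2690 genes. The median higher gene of this level had 7 of 12 cells above both bulk libraries and 5 below both. The median gene within 2-fold had 2 above and 9 below, and the median lower gene had all 12 below. These counts are in plain CPM, while the classes are relative to the median gene, at a log2 ratio of -0.44. Against bulk, cells thus stand lower in these counts than in the classes.

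All 12 cells stood above both bulk libraries, in plain CPM, at 19 of the 15692 genes (0.121%), and below both at 2710 (17.3%). These counts moved with the totals and with the cells used. With the 50 most abundant genes of each library left out of the totals, the numbers were 74 and 1232. Without the 4 cells with over 50% of reads on 10 genes they were 76 and 3367, and without the 5 cells under 8000 genes they were 279 and 4471. Without cell 1 alone, 31 genes had all remaining cells above bulk. With fewer cells it is easier for all of them to lie on 1 side of bulk, so leaving out cells can raise both counts by itself.

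**Figure D5:**
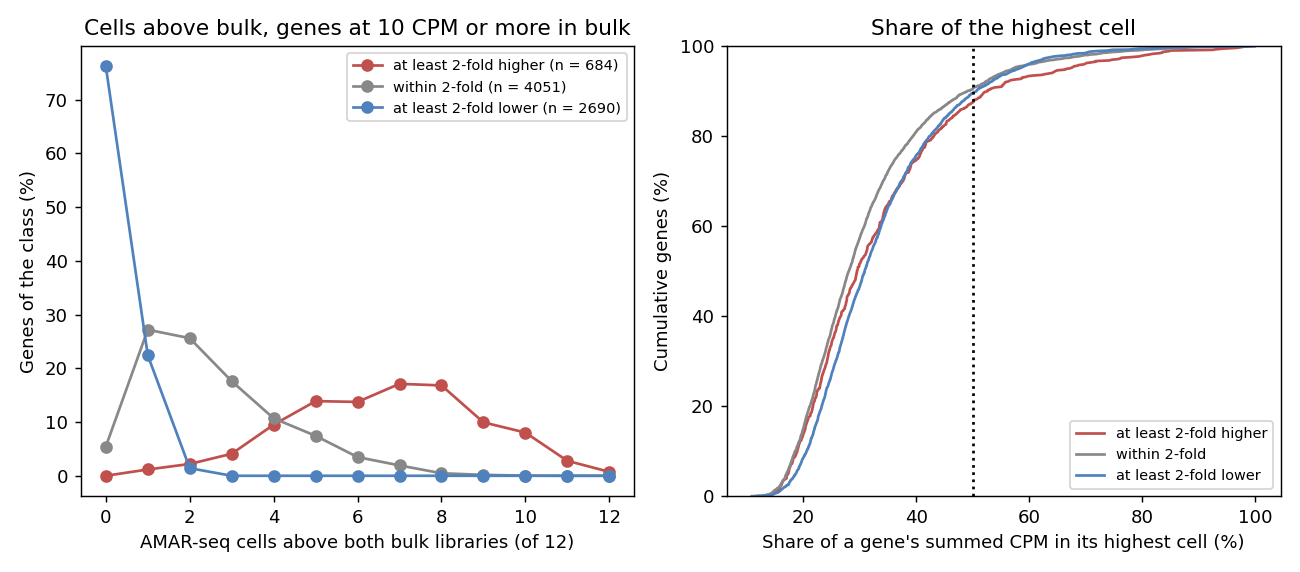
Left, for genes at 10 CPM or more in bulk, the percent of each class by the number of AMAR-seq cells above both bulk libraries. Cells are counted in plain CPM, while the classes are relative to the median gene. The medians are 7 cells for the higher genes, 2 for the genes within 2-fold and 0 for the lower genes. Right, the cumulative percent of genes by the share of summed CPM in the highest cell, with the dotted line at 50%; the 3 classes run close together.

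Single cells did not contribute alike. Among the 2727 higher genes, the highest cell was cell 7 in 439, cell 4 in 421, cell 5 in 351 and cell 6 in 348, and cell 12 in the fewest, 75. Among the 7425 genes at 10 CPM or more in bulk, it was most often cell 1 (1249 genes), cell 11 (1196) and cell 6 (1055), and least often cell 2 (134). Cells 1, 4, 5 and 6 had fewer than 8000 genes at fixed depth, but cell 7 had 8685 and cell 11 had 11602. The 10 most abundant genes of cell 7 took 70.2% of its reads. Cell 9, with 6557 genes and 62.8% of its reads on the 10 genes most abundant in bulk, was highest in 147 of the higher genes and 309 of the 7425. In plain CPM, a cell stood below both bulk libraries at 65.6% (cell 11) to 89.7% (cell 9) of these 7425 genes.

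The 4 K562 single-cell libraries labelled Smart-seq2, the cDNA chemistry on which the AMAR-seq RNA step is based, are set beside these values. Each of them had a read at 98.7% to 99.0% of the 7425 genes, a range that AMAR-seq cell 3 passed (99.2%) and cell 11 fell within, while the other 10 AMAR-seq cells lay below it, at 72.3% to 98.6%. These shares are at unequal depth, with 4290751 to 9098857 gene reads per Smart-seq2 library. In 1000000 gene reads, the Smart-seq2 libraries had 10659 to 11775 genes. AMAR-seq cells 3 (12638) and 10 (11799) passed that range, cells 2, 11 and 12 fell within it, and the other cells lay below it. Pairs of Smart-seq2 cells correlated at 0.88 to 0.92, apart from replicates 2 and 3, at 0.996. The counts of replicates 2 and 3 were far closer than those of any other pair (chi-square per degree of freedom 2.06), and their average stands for both. ENSG00000182774 had 321 CPM in replicate 1, 259 CPM in that average and 199 CPM in replicate 4, also above bulk, and ENSG00000281383 had 19.1, 9.09 and 12.6 CPM, above both bulk libraries as well but below every AMAR-seq cell. ENSG00000145569 had 0.110, 0 and 0 CPM, and ENSG00000268223 had 2.43, 1.98 and 2.33 CPM, both far below bulk as in AMAR-seq. Both comparisons share the bulk libraries, and the difference between the 2 kinds of single-cell library was not tested.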

How the data were processed

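The authors deposited raw counts of reads per human gene ID, 1 library each, without normalization. The submitters' processing notes name Trim Galore 0.6.7 and the hg38 build. How the RNA reads were aligned and counted, and whether by strand, is not stated by these notes, so reads of overlapping, antisense or near-identical genes may be split or lost in ways that cannot be checked. The 5 closing lines of each library, for reads not assigned to 1 gene, took 29.4% to 60.9% of all reads of a cell and 47.6% and 46.7% in bulk, and stayed out of all totals.

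Counts were summed over the 12 cells and over both bulk libraries and scaled to CPM. The log2 ratio used a pseudocount of 1 CPM, which understates the change of low genes, less the median over genes with at least 20 reads in at least 2 libraries. Exact 95% intervals cover counting error. The bulk libraries differed by more than sampling noise (chi-square per degree of freedom 4.71) and counted as 2 libraries, although every ratio uses their sum. No cell was removed and no doublet caller was run. Genes named by ID were the first 2 at each end of the level order and of the spread order. The gene lists drawn up for named human genes were not evaluated. The members and lists were chosen with earlier results of these data known. The code for ratios and effective numbers was checked on simulated counts. In these, few genes differed in level and most genes were spread more evenly than in the cells. That check does not cover differences as wide as those found here. Values were computed with scipy 1.17.1, pandas 2.3.3 and numpy 2.4.6 in Python 3.11.15 and drawn with matplotlib 3.10.9, with R 4.3.3, edgeR 4.0.16 and DESeq2 1.42.0 for scaling factors only. Alternatives were other scalings, weightings, pseudocounts, filters, a thinned depth and the loss of each library.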

Additional observations from a re-analysis of the deposited data

How the results depend on the processing

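No paired analysis was possible because the shared numbers of cells and bulk libraries mark no common source, and no test was made. The counts of higher and lower genes stayed within 1.5 times under TMM, DESeq2, mean, median and top-50 scalings, but the genes were not always the same: the median over cells kept 59.9% of the higher and 79.5% of the lower genes. TMM gave more higher (3140) than lower genes (3024). The counts were 2728 to 2994 and 3204 to 3591 without any 1 library. They moved with the pseudocount, the read filter and the threshold. There were 4261 higher and 4022 lower genes at 0.1 CPM, and 576 higher and 2129 lower at 10 CPM. With at least 200 reads there were 2322 higher and 2171 lower, and with at least 1 read 1879 higher and 4398 lower. At 4-fold there were 659 higher and 878 lower. Higher genes thus outnumbered lower ones at 0.1 CPM and with at least 200 reads, as under TMM. The 4 genes named for their level kept their direction, which the conditions for naming them fix for the loss of 1 library and for the median over cells. Their sizes moved: at 10 CPM the relative log2 ratios were 4.95 for ENSG00000182774, 4.19 for ENSG00000281383, -6.29 for ENSG00000145569 and -4.48 for ENSG00000268223, and ENSG00000145569 had -12.10 at 0.1 CPM and -10.14 with totals less the top 50 genes.

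The median effective number of cells was 5.84 with totals less the top 50 genes, 4.70 at 1 CPM or more in bulk and 6.98 at 100 CPM or more. As a share of the cells it was 46.0% to 50.8% without any 1 cell, 49.8% without the cells with over 50% of reads on 10 genes, and 67.8% without those under 8000 genes. The highest cell held 29.5% to 32.5% without any 1 cell. Genes read in every cell numbered 3026 to 3413 without any 1 cell, 1997 at 5 reads or more, and 5724 without the cells under 8000 genes. The share of higher genes with more than 50% of their CPM in 1 cell was 46.9% to 52.3% without any 1 library, and 58.0% and 45.2% without the cells of high concentration or few genes. Genes with all cells above bulk numbered 19 to 31 and those below 2794 to 3161 without any 1 cell. They were 74 and 1232 with totals less the top 50 genes. Without the concentrated cells 76 were above, and without the cells under 8000 genes 279 were above and 4471 below. The Pearson r of summed cells with bulk was 0.86 to 0.88 without any 1 library and 0.77 with at least 200 reads. At 100000 reads, the median cell had 5657 genes. Depth limits single-cell levels to a floor of 3 reads, 0.403 to 0.733 CPM. The causes of these shifts were not tested. The 2 reductions by cells were chosen after the data were seen. Fewer cells also make it easier for a gene to be read in all of them or to have all of them on 1 side of bulk.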
